A study of Caenorhabditis elegans with 4 samples.

Results

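The genes described here encode the enzymes of central energy metabolism in Caenorhabditis elegans: glycolysis and lactate formation, gluconeogenesis, the pyruvate dehydrogenase complex, the tricarboxylic acid (TCA) cycle, the glyoxylate shunt, and the synthesis of trehalose and glycogen with glycogen breakdown. They were chosen by gene symbol, 48 genes in all, with earlier results of these data known. A gene counted as measured where an array probe carried that symbol alone. Of the 48, 41 genes had such a probe, 47 probes in total, among 19981 features tested on the arrays. The genes gpd-1, gpd-2 and pdha-1 had only a probe that carries a second gene as well and were given no value, and hxk-3, gpi-1, fbp-1 and gsy-1 were not analysed here. The study measured 4 preps of mRNA from glp-4 adults, each on a two-channel spotted array beside RNA described as a wild-type mixed reference, which was the same kind of RNA on every array. The allele of glp-4, the temperature of growth, the adults' age and the make-up of the reference were not given in the sources used here. Whether the preps were grown as separate cultures is not stated either, so p-values cover the differences among these 4 preps alone, and those may be technical.

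Worms need glp-4, a gene for valyl-tRNA synthetase, to expand their germ line, and its temperature-sensitive mutant grown at the restrictive temperature becomes an adult with very few germ cells. Glycolysis splits glucose into pyruvate, the pyruvate dehydrogenase complex turns pyruvate into acetyl-CoA, and the TCA cycle oxidises acetyl-CoA in mitochondria. Worms also run the glyoxylate shunt, which animals such as mammals lack and which lets acetyl-CoA from fat be used to build sugar, and they store sugar as glycogen and as the disaccharide trehalose. Several of these steps are encoded by more than one gene.

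Each value is a log2 ratio of the channels of an array, and its likely direction is glp-4 adults over reference. That direction rests on the array descriptions and the channel order alone, since no dye is named, and in the other direction every sign below would turn. The arrays came centred near 0, so each ratio compares a transcript with the rest of its array. In these whole-worm samples, more or fewer cells of a type and more or less RNA per cell cannot be told apart. Genotype differs between the channels of every array, and stage may differ too, since the make-up of the mixed reference was not given. A difference of genotype and one of stage cannot be told apart here either. Markers of other cell types moved strongly on the same arrays: 12 of 12 germline, 8 of 8 oocyte and eggshell and 8 of 8 sperm markers were lower, with list medians per prep between -3.58 and -2.55, -4.70 and -4.10, and -3.94 and -3.0. Of the intestinal markers 7 of 8 were higher (medians per prep of 2.29 to 2.59), as were 6 of 8 muscle markers (0.23 to 1.64), while 7 of 8 neuronal markers were lower (-1.17 to -0.61) and the epidermal ones were split, 3 higher and 2 lower of 7. The part of such shifts between cell types in the values below was not tested.

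Transcripts of the energy metabolism enzymes were more often higher than lower in glp-4 adults. In limma, with Benjamini-Hochberg adjustment over all features and a threshold of 0.05 on the adjusted p, 19 of the 41 measured genes were higher (46.3%), 3 were lower and 19 did not pass, against 17% of all tested features called higher and 20.9% called lower. The share of all features called higher was 10.8% without prep 4, when 17 of the genes were higher. The median log2 ratio of the genes was 0.44, and it lay between 0.43 and 0.58 on the single preps, against a median of 0.00 over all features, which lay between -0.07 and 0.08 on the single preps. Of the 19 higher genes 8 differed by 2-fold or more, as did 1 of the 3 lower ones (background: 7.83% of features higher and 10.8% lower by as much). By pathway, 12 of 16 listed TCA cycle genes were higher, as were 6 of 15 genes of glycolysis and lactate formation. The count was 1 of 3 for the pyruvate dehydrogenase complex, and 0 of 3 each for gluconeogenesis and for trehalose and glycogen. Groups of 3 genes are too small for their share to be set beside the 17% of all features. These differences between groups of genes were not tested.

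**Figure D1:**
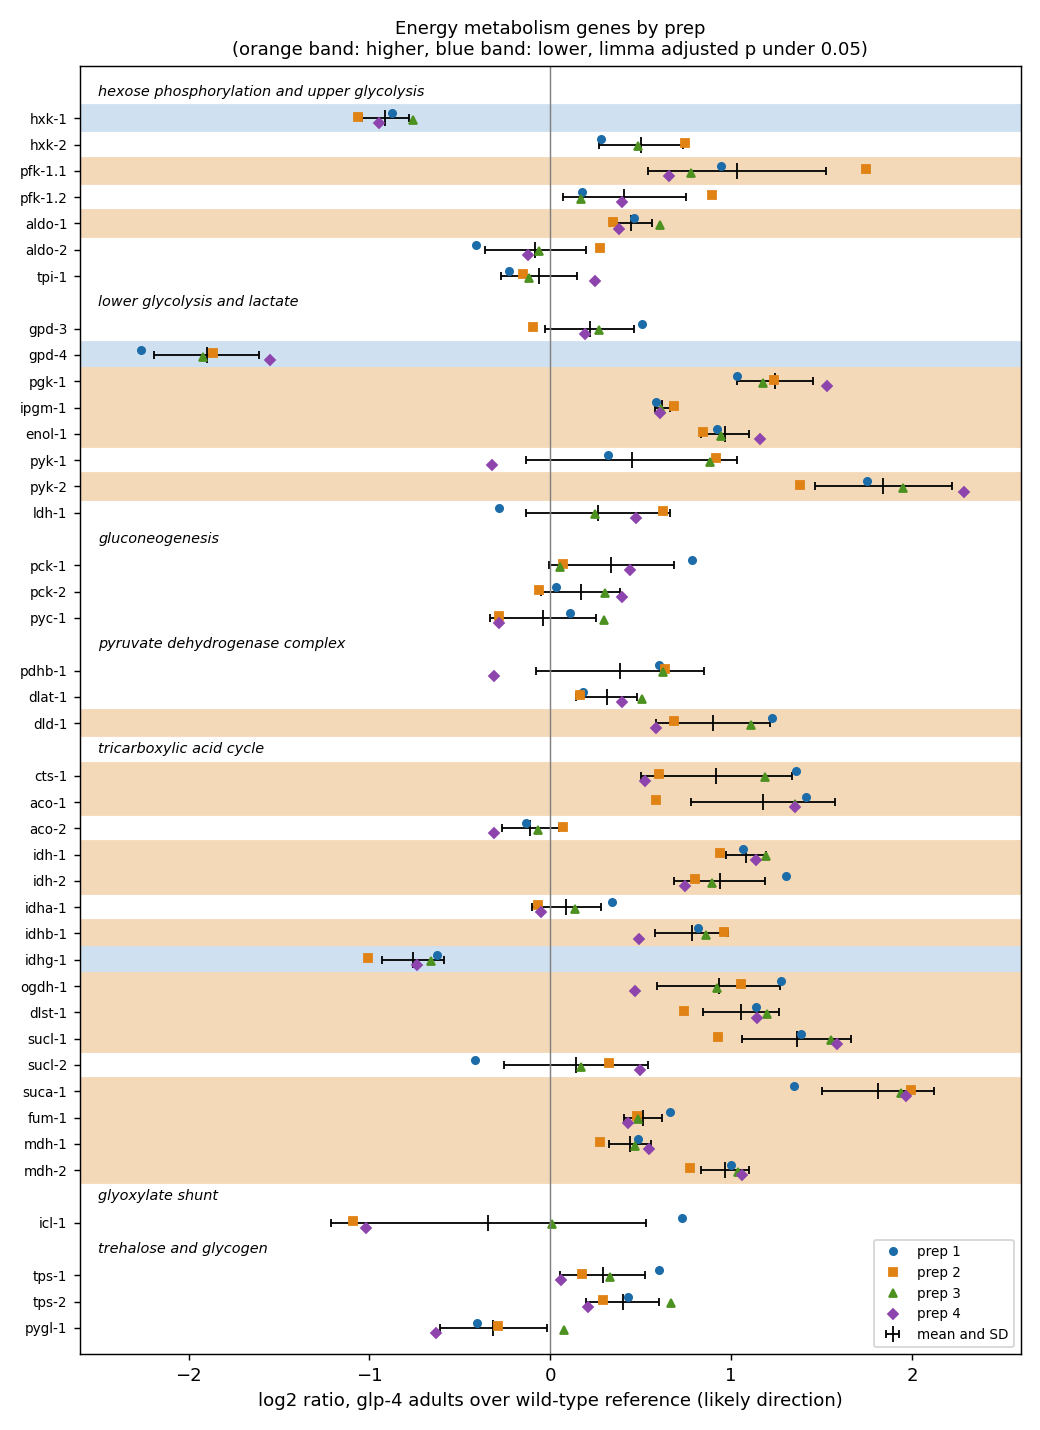
Log2 ratios (glp-4 adults over wild-type reference, likely direction, horizontal axis) of the 41 measured genes, grouped by pathway; symbols are the 4 preps, black bars the mean and SD, and bands mark genes past the limma threshold. Of 16 TCA cycle genes 12 lie in orange bands (higher), and the 3 blue bands (lower) are hxk-1, gpd-4 and idhg-1.

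In the first steps of glycolysis, the genes went in both directions. The hexokinase gene hxk-1 (F14B4.2), whose product traps glucose in the cell as glucose 6-phosphate, had log2 ratios of -0.87, -1.06, -0.76 and -0.95 on preps 1 to 4. All 4 preps were below 0, and the gene was 1.88-fold lower in glp-4 adults (mean -0.91 ± 0.13, SD, n = 4 preps, adjusted p = 0.00318 in limma). The second hexokinase gene, hxk-2 (H25P06.1), had 0.28, 0.75 and 0.48 on preps 1 to 3 and no value on prep 4. These values were all positive but did not pass (mean 0.50 ± 0.23, n = 3, adjusted p = 0.0831). On the 3 arrays with both values, hxk-2 lay above hxk-1 by 1.40 ± 0.36 on the log2 scale, with a lowest difference of 1.15.

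Phosphofructokinase, the committed and most regulated step of glycolysis, is encoded by pfk-1.1 (Y71H10A.1) and pfk-1.2 (C50F4.2). The ratios of pfk-1.1 were 0.94, 1.75, 0.78 and 0.66 on preps 1 to 4, with prep 2 furthest from the rest, and the gene was 2.05-fold higher (mean 1.03 ± 0.49, adjusted p = 0.00882). Those of pfk-1.2 were 0.18, 0.89, 0.17 and 0.40, again highest on prep 2, and did not pass (mean 0.41 ± 0.34, adjusted p = 0.110). Aldolase, which splits fructose 1,6-bisphosphate, is likewise encoded by a couple of genes. Of these, aldo-1 (T05D4.1) was 1.36-fold higher (0.46, 0.34, 0.61 and 0.38, adjusted p = 0.0457), a call that was lost on leaving out any 1 of the 4 preps (adjusted p of 0.0768 to 0.138, and of 0.0389 to 0.138 under all 14 alternatives). The paralog aldo-2 (F01F1.12) had -0.41 on prep 1 and 0.27 on prep 2, a mean of -0.08 ± 0.28 that turned to 0.03 without prep 1. Triose phosphate isomerase, tpi-1 (Y17G7B.7), ranged from -0.23 to 0.25 (mean -0.06 ± 0.21), with a 95% interval of the mean of -0.43 to 0.30.

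Lower glycolysis held both the largest rise and the largest fall among the 41 genes. Glyceraldehyde 3-phosphate dehydrogenase, the oxidation step of glycolysis, is encoded by gpd-1 to gpd-4. The gpd-4 probe (F33H1.2) gave -2.27, -1.86, -1.92 and -1.55, far below 0 on every prep, and was 3.73-fold lower in glp-4 adults (mean -1.90 ± 0.29, adjusted p = 0.000349). The gpd-3 probe (K10B3.7) gave 0.51, -0.09, 0.27 and 0.19, which did not pass (mean 0.22 ± 0.25, adjusted p = 0.312). Within an array the gpd-3 ratio exceeded the gpd-4 ratio by 2.12 ± 0.48 on the log2 scale, with a lowest difference of 1.74. The genes gpd-1 and gpd-4 are close copies, as are gpd-2 and gpd-3, so each of these spots may report both members of its couple and the values are uncertain for a single gene.

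Each later enzyme on the way to pyruvate had a gene that was higher. Phosphoglycerate kinase, pgk-1 (T03F1.3), which makes ATP, had 1.03, 1.24, 1.17 and 1.53 and was 2.37-fold higher (mean 1.24 ± 0.21, adjusted p = 0.00120). The cofactor-independent phosphoglycerate mutase, ipgm-1 (F57B10.3), a nematode enzyme unlike the vertebrate one, had the tightest values of the 41 genes, between 0.58 and 0.68 (mean 0.62 ± 0.04, adjusted p = 0.0128). Enolase, enol-1 (T21B10.2), had 0.92, 0.85, 0.95 and 1.16 (mean 0.97 ± 0.13, adjusted p = 0.00252), and its 2 probes had means of 0.95 and 0.99. Pyruvate kinase, the last step, is encoded by pyk-2 (ZK593.1) and pyk-1 (F25H5.3). For pyk-2 the ratios were 1.75, 1.38, 1.95 and 2.29, and the gene was 3.59-fold higher (mean 1.84 ± 0.38, adjusted p = 0.000558), the highest mean of the 41 genes, with 2.43% of all tested features above it. For pyk-1 they were 0.32, 0.92, 0.88 and -0.32, with prep 4 below 0 and no call (mean 0.45 ± 0.58, adjusted p = 0.169). Lactate dehydrogenase, ldh-1 (F13D12.2), which turns pyruvate into lactate when oxygen is short, had -0.29 on prep 1 and 0.25 to 0.62 on the other preps, without a call (mean 0.27 ± 0.40, adjusted p = 0.300).

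None of the 3 measured genes listed under gluconeogenesis passed the threshold. Of all features 37.9% were called in either direction, but 3 genes are too few for their share to be set beside it. Phosphoenolpyruvate carboxykinase, which pulls carbon out of oxaloacetate towards sugar, was measured as pck-1 (W05G11.6) and pck-2 (R11A5.4). The ratios of pck-1 were 0.78, 0.07, 0.05 and 0.44, highest on prep 1 (mean 0.34 ± 0.35, adjusted p = 0.175), and its 2 probes both had their highest value there. Those of pck-2 were 0.03, -0.06, 0.30 and 0.40 (mean 0.17 ± 0.22, adjusted p = 0.422). Pyruvate carboxylase, pyc-1 (D2023.2), which makes oxaloacetate from pyruvate, was positive on preps 1 and 3 and negative on preps 2 and 4 (mean -0.04 ± 0.29), and the sign of this mean turned under 3 alternatives. The 95% intervals of the means reached from -0.09 to 0.76 for pck-1, from -0.20 to 0.54 for pck-2 and from -0.44 to 0.36 for pyc-1, so a difference of more than 2-fold in either direction lay outside all 3.

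The pyruvate dehydrogenase complex joins glycolysis to the TCA cycle and was measured at 3 of its subunits. Dihydrolipoamide dehydrogenase, dld-1 (LLC1.3), the E3 subunit shared with the 2-oxoglutarate dehydrogenase complex, had 1.23, 0.69, 1.11 and 0.58 and was 1.87-fold higher (mean 0.90 ± 0.31, adjusted p = 0.00667). The E1 beta subunit, pdhb-1 (C04C3.3), had 0.60, 0.63 and 0.62 on preps 1 to 3 and -0.31 on prep 4. With prep 4 the gene did not pass (mean 0.39 ± 0.46, adjusted p = 0.175). Without it the mean was 0.62 and the adjusted p 0.0481, the lowest in a range of 0.0481 to 0.377 over its alternatives. The E2 subunit, dlat-1 (F23B12.5), was positive on each prep at 0.16 to 0.51 and did not pass (mean 0.31 ± 0.17, adjusted p = 0.139).

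Of the 16 genes listed for the TCA cycle, 12 were higher in glp-4 adults, 1 was lower and 3 did not pass, against 17% and 20.9% of all features called in each direction. The list includes the cytosolic aco-1, idh-1 and mdh-1 and the NADP-dependent idh-2, all called higher. Succinate dehydrogenase genes, sucg-1 and idhg-2 also belong to the cycle but are outside the list, so the share depends on this choice. Among these, sdha-1 and idhg-2 were higher, and sdha-2 and sucg-1 were lower. The succinate dehydrogenase genes mev-1 and sdhd-1 did not pass, and sdhb-1 had no value. The median of the 16 genes was 0.92, and it was 1.03, 0.67, 0.91 and 0.53 on preps 1 to 4. Citrate synthase, cts-1 (T20G5.2), the entry of the cycle, had 1.36, 0.60, 1.19 and 0.52 and was 1.89-fold higher (mean 0.92 ± 0.42, adjusted p = 0.0101). Aconitase, which turns citrate into isocitrate, differed between its genes. The ratios of aco-1 (ZK455.1), the cytosolic relative of the iron regulatory proteins, were 1.42, 0.58, 1.36 and 1.35, with prep 2 apart from the rest (2.26-fold higher, mean 1.18 ± 0.40, adjusted p = 0.00336). Those of the mitochondrial aconitase aco-2 (F54H12.1) were -0.13, 0.07, -0.07 and -0.31 (mean -0.11 ± 0.16, adjusted p = 0.580). The 95% intervals of the means were -0.46 to 0.24 for aco-2 and 0.73 to 1.63 for aco-1. Within an array the aco-1 ratio exceeded the aco-2 ratio by 1.29 ± 0.52 on the log2 scale, with a lowest difference of 0.51 on prep 2. This difference was not tested.

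Isocitrate dehydrogenase comes in a form that uses NADP and a form that uses NAD. Both NADP-dependent genes were higher: the cytosolic idh-1 (F59B8.2) had 1.06, 0.94, 1.19 and 1.14 (2.12-fold, mean 1.08 ± 0.11, adjusted p = 0.00149) and the mitochondrial idh-2 (C34F6.8) had 1.30, 0.80, 0.90 and 0.74 (1.91-fold, mean 0.94 ± 0.25, adjusted p = 0.00438). The idh-1 ratio minus the idh-2 ratio was 0.15 ± 0.28 and changed sign between preps. The NAD-dependent enzyme of the TCA cycle proper is built from alpha, beta and gamma subunits, and its genes went 3 ways. The beta subunit gene idhb-1 (C37E2.1) had 0.82, 0.96, 0.86 and 0.49 and was higher (mean 0.78 ± 0.20, adjusted p = 0.00745). The alpha subunit gene idha-1 (F43G9.1), with 2 probes that had means of 0.05 and 0.13, did not pass (mean 0.09 ± 0.19, adjusted p = 0.664). The gamma subunit gene idhg-1 (F35G12.2) had -0.63, -1.01, -0.66 and -0.74, below 0 on every prep, and was 1.69-fold lower (mean -0.76 ± 0.17, adjusted p = 0.00750). Another gamma subunit gene, idhg-2 (C30F12.7), is outside the 48 genes and was looked up after these values were seen. It had 0.58, 0.62, 0.91 and 0.74 (mean 0.71 ± 0.15, adjusted p = 0.00900), above idhg-1 by 1.47 ± 0.19 on the log2 scale within arrays.

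Both measured subunits specific to the 2-oxoglutarate dehydrogenase complex were higher. The E1 subunit gene ogdh-1 (T22B11.5) had 1.28, 1.06, 0.92 and 0.47, lowest on prep 4 (1.91-fold, mean 0.93 ± 0.34, adjusted p = 0.00654), and the E2 subunit gene dlst-1 (W02F12.5) had 1.14, 0.74, 1.2 and 1.14, lowest on prep 2 (2.08-fold, mean 1.06 ± 0.21, adjusted p = 0.00229). Together with the shared E3 gene dld-1, all 3 subunits of this complex were thus called higher.

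Succinyl-CoA synthetase makes ATP or GTP directly, and an alpha subunit pairs with a beta subunit that sets which of them is made. Of the alpha subunit genes, sucl-1 (C05G5.4) had 1.39, 0.93, 1.55 and 1.58 and was 2.57-fold higher (mean 1.36 ± 0.30, adjusted p = 0.00120), while sucl-2 (F23H11.3) had -0.42, 0.33, 0.17 and 0.50 and did not pass (mean 0.14 ± 0.40, adjusted p = 0.575). The ATP-forming beta subunit gene suca-1 (F47B10.1) had 1.35, 2.00, 1.94 and 1.96 and was 3.51-fold higher (mean 1.81 ± 0.31, adjusted p = 0.000442), second in mean only to pyk-2 among the 41 genes. Its GTP-forming counterpart sucg-1 (C50F7.4), which is outside the 48 genes and was looked up after the value of suca-1 was seen, had -1.60, -0.89, -0.97 and -1.0 and was 2.17-fold lower (mean -1.12 ± 0.33, adjusted p = 0.00302). Both genes had their lowest ratio on prep 1, and the difference of their ratios within an array was nearly constant, 2.95, 2.89, 2.91 and 2.96 on preps 1 to 4 (mean 2.93 ± 0.03, or 7.61-fold). Differences between a couple of genes within arrays are given with their SD over preps and were not tested.

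The fumarase and malate dehydrogenase genes of the last steps were all called higher, fum-1 and mdh-1 by smaller amounts than mdh-2. Fumarase, fum-1 (H14A12.2), had 0.66, 0.48, 0.48 and 0.43 (1.43-fold, mean 0.51 ± 0.10, adjusted p = 0.0284). The cytosolic malate dehydrogenase mdh-1 (F46E10.10) had 0.49, 0.28, 0.47 and 0.54 (1.36-fold, mean 0.44 ± 0.12, adjusted p = 0.0475). Both calls were lost on leaving out any 1 prep, with adjusted p up to 0.0819 for fum-1 and 0.146 for mdh-1 (ranges over all alternatives from 0.0238 and 0.0385). The mitochondrial malate dehydrogenase mdh-2 (F20H11.3) had 1.00, 0.77, 1.04 and 1.06 (1.96-fold, mean 0.97 ± 0.13, adjusted p = 0.00252). Its ratio lay above that of mdh-1 on every array by 0.50 to 0.57 (mean 0.52 ± 0.03).

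**Figure D2:**
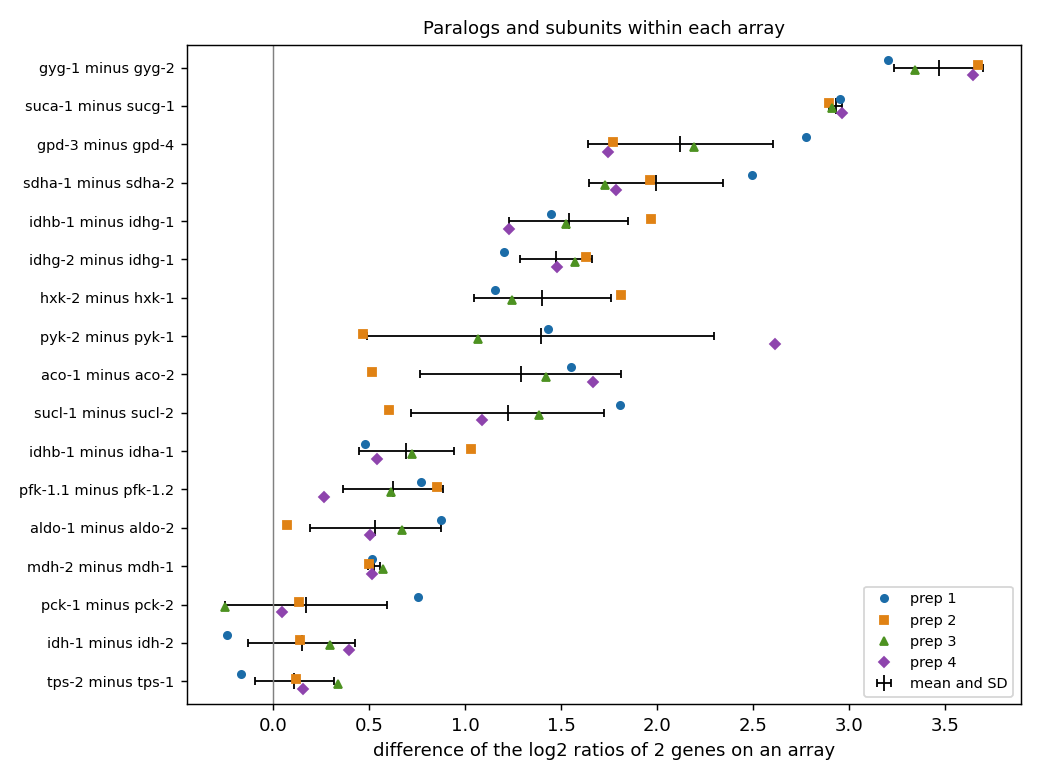
Differences of the log2 ratios of 2 genes measured on the same array (horizontal axis), for paralogs and for subunits of one enzyme; symbols are the 4 preps and black bars the mean and SD, and the gene with the higher mean is named first. The suca-1 and sucg-1 difference (2.89 to 2.96) and the mdh-2 and mdh-1 difference (0.50 to 0.57) varied least between preps, while pck-1, idh-1 and tps-2 crossed 0 against their paralogs.

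The glyoxylate shunt is carried out in C. elegans by icl-1 (C05E4.9), a single protein with isocitrate lyase and malate synthase activity. Its ratios differed in sign between preps, at 0.73, -1.09, 0.01 and -1.02 on preps 1 to 4, and it had the widest spread of the 41 genes (mean -0.34 ± 0.87, adjusted p = 0.417). The 3 probes of the gene gave the same order of preps 1 and 3 above preps 2 and 4: the first had 0.95, -0.96, 0.10 and -0.80, the second 0.26, -1.11, 0.00 and -1.05, and the third 0.96, -1.2, -0.08 and -1.2. The spread thus appeared on separate spots of the same arrays. The array titles join preps 1 and 2 by a prefix and preps 3 and 4 by a date, and neither couple shared its icl-1 values.

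The 3 measured trehalose and glycogen genes of the set gave no call. They are too few for their share to be set beside the 37.9% of all features called in either direction. Trehalose 6-phosphate synthase, which starts trehalose synthesis, was positive on each prep for both genes, at 0.06 to 0.60 for tps-1 (ZK54.2; mean 0.29 ± 0.23, adjusted p = 0.185) and 0.21 to 0.67 for tps-2 (F19H8.1; mean 0.40 ± 0.20, adjusted p = 0.0783). Glycogen phosphorylase, pygl-1 (T22F3.3), which frees glucose from glycogen, had a mean of -0.31 ± 0.30 (adjusted p = 0.180) over 2 probes that disagreed. One probe had 0.04, -0.18, 0.65 and -0.25 (mean 0.07 ± 0.41), and the other -0.85, -0.40, -0.50 and -1.02 (mean -0.69 ± 0.29), below the first on every array. The sign of pygl-1 therefore depends on the probe taken.

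**Figure D3:**
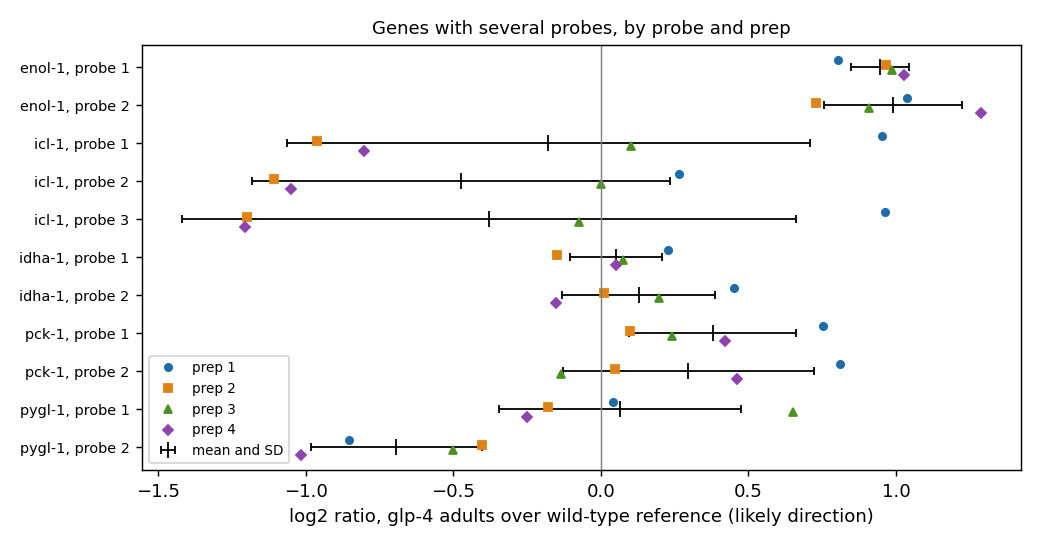
Log2 ratios (glp-4 adults over wild-type reference, likely direction, horizontal axis) of each probe of the 5 genes with several probes; symbols are the 4 preps and black bars the mean and SD. The 3 icl-1 probes repeat positive values on prep 1 and values near -1 on preps 2 and 4, while the 2 pygl-1 probes have means of 0.07 and -0.69.

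The genes outside the set that neighbour it in metabolism were taken from 6 lists of 70 genes, of which 58 were tested. In these lists 20 genes were higher and 4 lower, with a median of 0.36, against 17% and 20.9% of all features. Around the TCA cycle (pyruvate entry, succinate dehydrogenase and malic enzyme), 3 of 11 genes were higher and 1 was lower. The malic enzyme gene men-1 (mean 0.99 ± 0.17, adjusted p = 0.00258), the succinate dehydrogenase flavoprotein gene sdha-1 (0.66 ± 0.17, adjusted p = 0.0134) and the mitochondrial pyruvate carrier gene mpc-1 (0.57 ± 0.15, adjusted p = 0.0215) were higher, the last with no call without prep 1, 3 or 4. A second flavoprotein gene, sdha-2, was lower, with -1.60, -1.42, -1.05 and -1.27 (mean -1.33 ± 0.23, adjusted p = 0.00102), and lay below sdha-1 by 1.73 to 2.49 within arrays. In the pentose phosphate list 2 of 4 tested genes were higher, the transketolase gene tkt-1 (mean 1.02 ± 0.12, adjusted p = 0.00197) and T25B9.9 (mean 1.02 ± 0.30, adjusted p = 0.00381), and 0 were lower.

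Of 14 further genes that break down or assemble trehalose and glycogen, 6 were higher and 2 lower (42.9% and 14.3%), against 17% and 20.9% of all features. The highest were aagr-2, a gene of the acid alpha-glucosidase family (mean 1.93 ± 0.46, adjusted p = 0.000691), and the trehalase genes tre-4 (1.78 ± 0.36, adjusted p = 0.000581) and tre-2 (1.66 ± 0.52, adjusted p = 0.00148). The lowest was gyg-2, a glycogenin gene, with -3.14, -3.41, -2.81 and -3.16 on preps 1 to 4 (8.74-fold lower, mean -3.13 ± 0.24, adjusted p = 7.80e-05), and T04A8.7 was also lower (mean -0.72 ± 0.19, adjusted p = 0.0101). The other glycogenin gene, gyg-1, named for comparison after its value was seen, had 0.06 to 0.53 and did not pass (mean 0.34 ± 0.22, adjusted p = 0.128). Of 10 genes that take propionate to succinyl-CoA or acetyl-CoA, 4 were higher and 0 lower, against the same 17% and 20.9% of all features. The highest 3 act in the shunt that works without vitamin B12: acdh-1 had 0.89, 3.10, 1.87 and 2.71 (mean 2.14 ± 0.98, adjusted p = 0.00347), ech-6 a mean of 1.58 ± 0.41 (adjusted p = 0.00111) and hphd-1 one of 1.08 ± 0.41 (adjusted p = 0.00504).

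Chromosomes were read from RefSeq assembly WBcel235 and were not used to choose the genes. Of the 41 measured genes 8 are X-linked: pfk-1.1, gpd-3, aco-1, idh-2, idhb-1, sucl-1, suca-1 and tps-1. Of these, 6 were higher and 0 lower, with a median of 0.98, against 26.4% of X-linked features called higher, 11.8% called lower and a median of 0.18 over all 2227 of them. Of the 33 autosomal genes, 13 were higher and 3 lower, with a median of 0.40, against 16.7% and 23.9% of autosomal features and a median of -0.02. The difference between X-linked and autosomal genes of the set was not tested, and 5 of the 8 X-linked ones are TCA cycle genes.

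**Figure D4:**
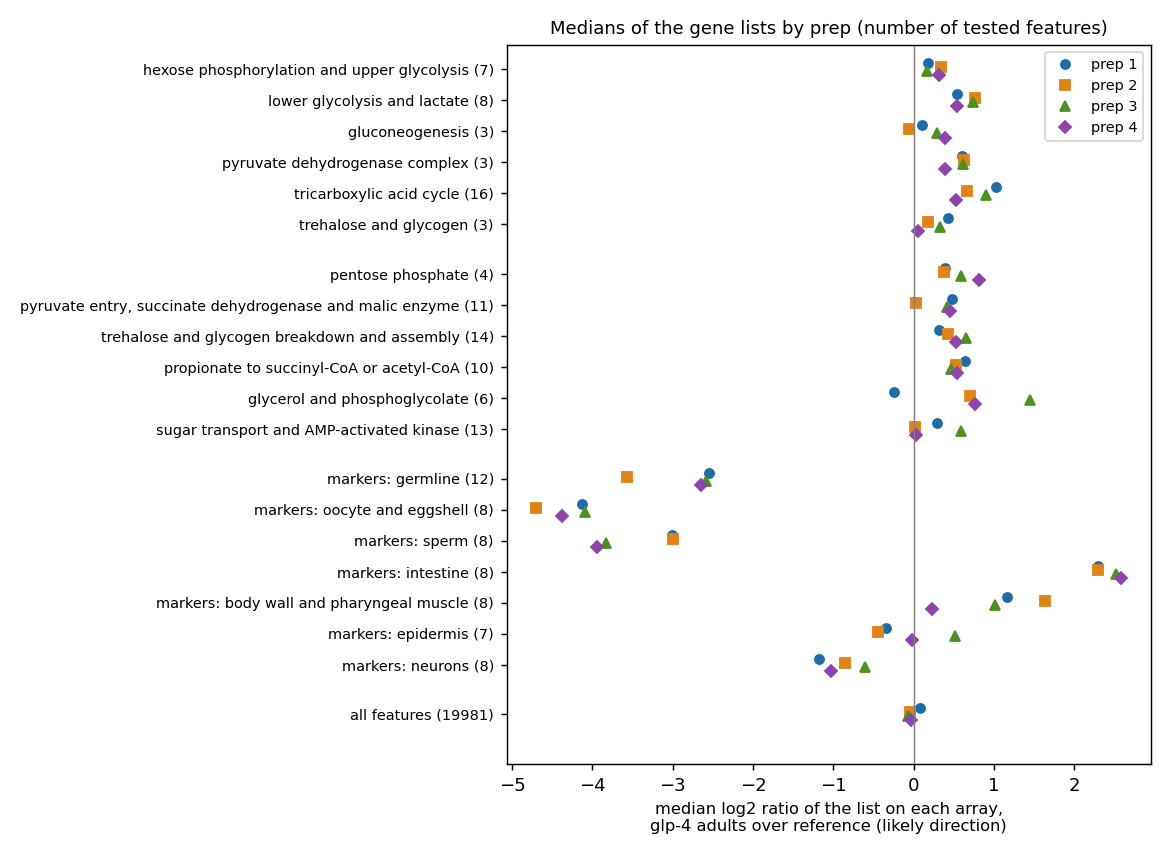
Median log2 ratio (glp-4 adults over wild-type reference, likely direction, horizontal axis) of each gene list on each of the 4 preps, with the number of tested features in brackets; the upper rows are the groups of the set, then the neighbouring pathway lists, the cell type markers and all features. The TCA cycle medians lie between 0.53 and 1.03 and those of the intestinal markers between 2.29 and 2.59, against -0.07 to 0.08 for all features.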

How the data were processed

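The authors deposited 1 log2 ratio of both channels per spot, centred near 0, for 21632 spots on each of 4 arrays. Scanner, background correction, normalization and dyes were not given in the sources used here. Their log base was settled from the values: all values below -2 are the log2 of a whole multiple of 0.001. Spot medians lay between -0.07 and 0.08, so no further centring was applied. No signal over background is known, and 4 arrays limit the precision. Probes were named from the platform annotation (16450 with 1 gene, 247 with several, 4935 not listed), and 16360 matched RefSeq (WBcel235) by gene number. Probes of 1 gene were averaged, which left 20140 features. A two-sided test of the mean ratio against 0 (lmFit and eBayes of limma 3.58.1, R 4.3.3) was run for the 19981 features measured on at least 3 arrays, with Benjamini-Hochberg adjustment over all of them. No wild-type sample other than the reference was hybridised, so the spread of wild type is left out. Errors after ± are SDs over preps, and intervals are 95% limma intervals. Genes outside the set were named by rule: per list, up to 3 in each direction past the threshold with the largest mean, with exceptions stated. The genes and lists were chosen with earlier results of these data known. Alternatives were other centring, scaling, filters, probe summaries and variance models, and leaving out each prep. Python 3.11.15, pandas 2.3.3 and matplotlib 3.10.9 were used for tables and plots.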

Additional observations from a re-analysis of the deposited data

Results flagged for a closer look

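On 4 of the 40 genes of the set measured on all 4 arrays, 1 prep stood apart from the other 3 by more than Dixon's 95% critical value, which chance does in about 5% of groups. The pyruvate dehydrogenase subunit gene pdhb-1 had -0.31 on prep 4, against 0.60 to 0.63 on the other preps, and with it the median of the 3 pyruvate dehydrogenase complex genes was lowest on prep 4 (0.39). The aconitase gene aco-1 had 0.58 and dlst-1 had 0.74 on prep 2, both below the other preps. The succinyl-CoA synthetase gene suca-1 had 1.35 on prep 1, also its lowest value. Among 19 neighbouring genes named by the rule, T04A8.7 had -1.0 on prep 2, below its other values. The lone preps were 1, 2 and 4, and the calls of aco-1, dlst-1 and suca-1 held without them.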

How the results depend on the processing

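Under the 10 alternatives that kept all preps, 19 genes of the set were higher and 3 lower each time, and without 1 prep 16 to 17 were higher and 3 lower. Of the higher genes, 16 passed under every one of the 14 alternatives, as did the 3 lower ones, while aldo-1, fum-1 and mdh-1 passed under the 10 that kept all preps and under 0 of the 4 that left one out. The median ratio of the set was 0.41 to 0.47 throughout. Over all features, 2091 to 2793 were higher without 1 prep (2091 without prep 4), against 3403 with all, and 3076 to 3686 lower, against 4174. Signs turned for genes near 0 that had no call: pyc-1 had 0.0170 with scaled arrays and -0.154 to 0.0409 without 1 prep, aldo-2 -0.200 to 0.0286 without 1 prep, and pygl-1 0.0651 when its first probe stood for the gene. Of the neighbouring genes, swt-7 had 0.44 and no call (adjusted p = 0.0549, the highest of a range from 0.000783) when a single probe stood for it. A random block for preps 1 and 2 and preps 3 and 4, chosen after seeing the data, changed no call of the set; title date or prefix alone leaves no estimate of the correlation and was not run. No paired analysis was possible because the 4 preps form 1 group.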

Other observations

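Sugar transport and energy sensing genes were called in both directions: of 13 tested, 4 were higher and 1 was lower, against 17% and 20.9% of all features. The SWEET-family sugar transporter genes swt-3 (mean 1.54 ± 0.84, adjusted p = 0.00773 in limma) and swt-7 (1.33 ± 0.24, adjusted p = 0.00106) and the AMP-activated kinase gamma subunit gene aakg-2 (1.18 ± 0.26, adjusted p = 0.00173) were higher. When a single probe stood for the gene, aakg-2 had 0.73 on 3 preps (adjusted p = 0.0328) and swt-7 had 0.44 with no call (adjusted p = 0.0549). The transporter gene swt-4 was lower (-0.74 ± 0.48, adjusted p = 0.0301), with no call without prep 2, 3 or 4.

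In the list of glycerol and phosphoglycolate genes, 1 of 6 was higher (16.7%) and 0 were lower, against 17% and 20.9% of all features, so the share called higher was that of the background. The higher gene was pgph-3 (mean 1.1 ± 0.78, adjusted p = 0.0233), and its call was lost without prep 2, 3 or 4. The other genes of this paragraph were chosen after their values were seen. The glycerol 3-phosphate dehydrogenase gene gpdh-1, which acts in glycerol synthesis under salt stress, had -0.57 on prep 1 and 1.37, 1.59 and 1.94 on preps 2 to 4. Without prep 1 its mean was 1.63 (adjusted p = 0.00272), against 1.08 and an adjusted p of 0.0671 with all preps, and it did not pass under its other alternatives, up to an adjusted p of 0.209. The genes pgph-1 and pgph-2 were likewise lowest on prep 1, at -0.20 and -0.28, and highest on prep 3, at 1.60 and 1.31. With all preps neither passed, with adjusted p of 0.0642 for pgph-1 and 0.119 for pgph-2, and without prep 1 both did, with means of 1.1 and 0.85 (adjusted p of 0.0137 and 0.0286). Over their alternatives the adjusted p reached 0.192 for pgph-1, which also passed when a single probe stood for it (0.0421), and 0.353 for pgph-2. The pgph genes are close relatives, so their spots may report each other.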
